A study of Arabidopsis thaliana with 4 samples.

Results

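The genes described here are accD, rpoB, rpoC1, rpoC2 and matK, 5 genes of the plastid genome that encode a subunit of acetyl-CoA carboxylase, 3 subunits of RNA polymerase and an intron maturase. They were chosen by gene, as the probe sets whose single annotated gene is one of these names. Each has 1 probe set. They are 5 of the 13356 genes named as the single gene of a probe set, and 5 of the 69 such plastid genes; 22746 probe sets were tested in all. Their RNA was measured on 4 Affymetrix arrays, 2 from shoots of Arabidopsis thaliana that overexpress the basic helix-loop-helix transcription factor bHLH122 and 2 from untreated wild-type shoots, all in the Col-0 background. Plants were 3 weeks old, after 96 h of stratification, 1 week on MS medium and 2 weeks in soil. The promoter that drives the transgene is not given in the sources used here. The sample sources describe the overexpressor arrays as independent lines, but both titles carry line number 18, so both arrays form a single group. As no label ties the arrays of a group to separate cultures, the p-values reflect the spread between arrays and may cover technical error alone.

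Plastids keep a small genome of bacterial descent that is read by enzymes of different origin. One is a bacterial-type polymerase whose core is encoded by the plastid genes rpoA, rpoB, rpoC1 and rpoC2; the other kind is a phage-type polymerase imported from the cytosol and therefore called the nuclear-encoded polymerase. The nuclear-encoded polymerase transcribes the unit of rpoB, rpoC1 and rpoC2, and so supplies the messages for these subunits of the bacterial-type enzyme. Likewise, accD is described as read by the nuclear-encoded polymerase. accD encodes the beta subunit of the carboxyltransferase in the plastid acetyl-CoA carboxylase, which makes the malonyl-CoA used in fatty acid synthesis. matK lies within the intron of the lysine tRNA gene trnK and encodes the maturase that takes part in splicing plastid group II introns.

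Signals were compared on the log2 scale. The arrays of a group correlated with r = 0.997 (overexpressors) and r = 0.996 (wild type) across probe sets, which are not independent replicates, against 0.980 to 0.981 between groups. Median signal was 40.2 to 40.8 in the overexpressors and 39.2 to 40.0 in wild type, and with so few arrays every value has limited precision. The shoot label was checked against markers: RCA, PRK, SBPASE and LHCB4.1, which encode proteins of carbon fixation and light harvesting, had log2 signals from 11.89 (SBPASE) to 13.99 (RCA) over the 4 arrays. The plastid markers rbcL and psbA had 9.48 to 9.75 and 8.78 to 9.52. Of these 6 shoot markers 3 were higher in the overexpressors, RCA by 0.34, PRK by 0.69 and SBPASE by 0.44, and psbA was lower (-0.61), shifts whose part in the results was not tested. The root hair gene EXPA7, the only root marker measured, had 3.43 to 3.78. No probe set carries the name bHLH122, so its transcript is not analysed here and gives no check of the labels. The spiked poly-A control RNAs averaged less in the overexpressors on 24 of 24 probe sets (median difference -0.59), as did the hybridization controls on 18 of 18 (median difference -0.25). The part of these shifts in the results below was not tested.

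In bHLH122 overexpressors accD, matK, rpoC1 and rpoC2 rose, and rpoB, at the lower end of the signal range, did not pass the test. The rise was largest for accD, 3.37-fold, and lay between 1.49-fold and 1.87-fold for rpoC2, rpoC1 and matK. Thus 4 of the 5 genes were higher and 0 lower by limma (Benjamini-Hochberg adjusted p under 0.05 over all tested probe sets; 1, rpoB, was lower at unadjusted p under 0.05), where 12.2% of all probe sets were called higher and 11.8% lower. Among the other 64 named plastid probe sets, 27 were called higher, 42.2%, and 2 lower, 3.12%. The median log2 fold change was 0.68 over the 5 genes, 0.34 over the other plastid probe sets and -0.02 over all probe sets. The calls rest on variance shared between probe sets: with limma's variances unshared, 0 of the 5 genes passed (lowest adjusted p = 0.112, for matK; 3 of the 5 had unadjusted p under 0.05). Bulk RNA from shoots cannot tell a change in RNA per cell or per plastid from a change in the number of cells or plastids. Labelling also started from poly-A tails. A change in the amount of a plastid RNA therefore cannot be told from a change in the share that carries such tails.

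**Figure D1:**
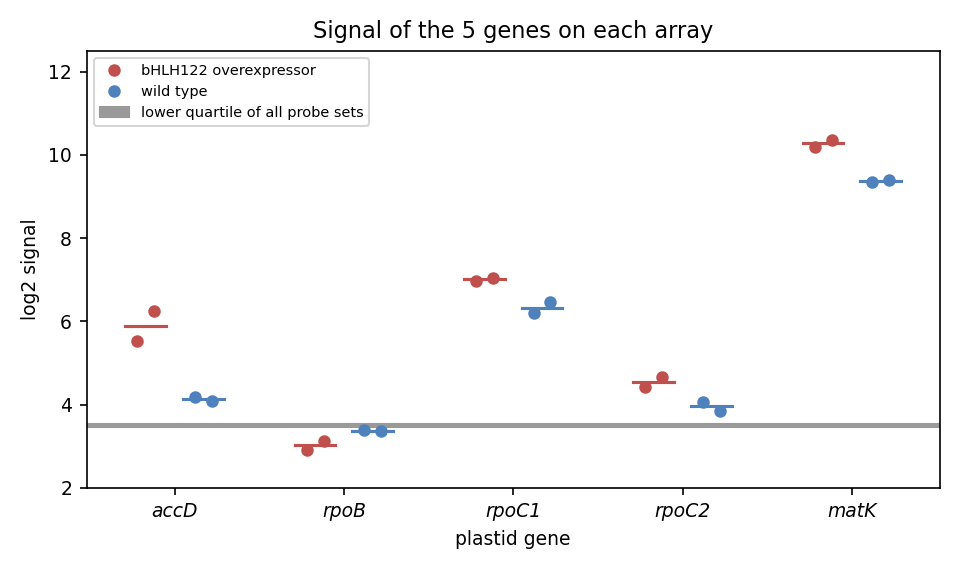
Log2 signal (vertical axis) of the 5 plastid genes (horizontal axis) on each array, bHLH122 overexpressor in red and wild type in blue; points are arrays, short lines are group means (n = 2 each), and the grey band spans the lower quartiles of all probe sets on the 4 arrays. The overexpressor points lie above the wild-type points for accD, rpoC1, rpoC2 and matK, and below them for rpoB, whose 4 points are under the grey band.

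accD had log2 signals of 5.54 and 6.25 in the overexpressors, against 4.19 and 4.09 in wild type. Both overexpressor arrays were higher than both wild-type arrays, and the overexpressor arrays differed from each other more than for any other of the 5 genes. The means were 5.89 ± 0.51 in the overexpressors, against 4.14 ± 0.07 in wild type (mean ± SD, n = 2 each), a log2 fold change of 1.75 (SE 0.22, 95% interval 1.21 to 2.30, limma adjusted p = 0.00422). On the linear scale the signals were 46.4 and 76.2 in the overexpressors and 18.2 and 17.1 in wild type. The wild-type signals were brighter than 38.0% and 37.0% of probe sets. Without detection calls it is not known how far they stand above background. The value depended on the overexpressor array kept: the log2 fold change was 2.11 without overexpressor replicate 1 and 1.40 without overexpressor replicate 2, and it passed in both cases. Of the 69 named plastid probe sets, accD ranked 10 by log2 fold change. With 16 added to every signal before log2, its log2 fold change was 1.17 (limma adjusted p = 0.00928).

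The first gene of the polymerase unit, rpoB, encodes the beta subunit, which together with the beta prime subunit forms the catalytic core. Its log2 signals were 2.90 and 3.13 in the overexpressors, against 3.38 and 3.36 in wild type. The groups did not overlap, and all 4 values lay under the lower quartile of their arrays, which was 3.46 to 3.54 in the overexpressors and 3.50 to 3.53 in wild type. The log2 fold change of rpoB was -0.36 (SE 0.11, 95% interval -0.63 to -0.08, limma adjusted p = 0.0686). Without detection calls it is not known how far this signal stands above background, so the size of any change in rpoB RNA is not known either. Relative to an array's other probe sets, rpoB was brighter than 3.59% and 9.94% of them in the overexpressors and 19.9% and 20.2% in wild type.

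rpoC1 encodes the beta prime subunit, whose gene is interrupted by an intron in Arabidopsis. It had log2 signals of 6.97 and 7.05 in the overexpressors, against 6.20 and 6.46 in wild type. Here the wild-type arrays were farther apart than the overexpressor arrays, yet the groups stayed separate. The means were 7.01 ± 0.05 in the overexpressors, against 6.33 ± 0.18 in wild type (± SD, n = 2 each), a log2 fold change of 0.68 (SE 0.12, 95% interval 0.39 to 0.97, limma adjusted p = 0.0108).

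rpoC2 encodes the beta double prime subunit, which in bacteria such as Escherichia coli is part of a single protein with beta prime. Its log2 signals were 4.42 and 4.66 in the overexpressors, against 4.07 and 3.86 in wild type. On the linear scale the signals were 21.4 and 25.4 in the overexpressors and 16.8 and 14.5 in wild type. They were brighter than 40.7% and 43.2% of probe sets in the overexpressors, and 36.3% and 33.6% in wild type. For rpoC2 too, the distance from background is not known without detection calls. Both overexpressor values were higher, with a gap between the groups somewhat larger than the spread within each. The means were 4.54 ± 0.17 in the overexpressors, against 3.96 ± 0.15 in wild type (± SD, n = 2 each), a log2 fold change of 0.58 (SE 0.13, 95% interval 0.26 to 0.90, limma adjusted p = 0.0238). This call did not hold without overexpressor replicate 2 (0.46, adjusted p = 0.0917) or without wild-type replicate 2 (0.47, adjusted p = 0.0980).

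The signal of matK, the maturase gene, lay high in the range of its arrays, above 92.2% or more of the probe sets. Its log2 signals were 10.20 and 10.36 in the overexpressors, against 9.36 and 9.40 in wild type. The groups were well apart, and the means were 10.28 ± 0.12 in the overexpressors, against 9.38 ± 0.03 in wild type (± SD, n = 2 each). The log2 fold change was 0.90 (SE 0.10, 95% interval 0.65 to 1.16, limma adjusted p = 0.00322). On the linear scale the signals were 1174 and 1316 in the overexpressors and 656 and 674 in wild type. Groups that do not overlap are common in these data, 61.2% of all probe sets, and were found for 5 of the 5 genes.

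The next question was whether the genes read by the nuclear-encoded polymerase, accD and the rpoB unit, moved differently from matK. The fold change of accD was above that of matK, and those of rpoC1, rpoC2 and the dim rpoB were below it. Averaged over accD, rpoB, rpoC1 and rpoC2 the log2 fold change was 0.66, against 0.90 for matK, a difference of -0.24. Centred on the wild-type mean, this difference was -0.31 and -0.16 in the overexpressors, against 0.03 and -0.03 in wild type. The average hides genes that differ from each other: the difference became 0.10 without rpoB and -0.60 without accD, settings chosen after seeing the data. Its negative sign thus rests on rpoB, whose signal is not shown to be above background. No p is given for this average, since it is a score over chosen genes.

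Gene by gene, the signal of every probe set minus that of matK on the same array was fitted with limma. In that fit 0.756% of all probe sets were higher relative to matK and 92.9% lower, as matK itself rose. A difference of this kind shows unequal change and not which gene changed. accD exceeded matK by 0.85 on the log2 scale, with array values of 0.58 and 1.13 in the overexpressors and 0.07 and -0.07 in wild type (limma adjusted p = 4.87e-07). The value for accD shrank to 0.29 (limma adjusted p = 0.0232) with 16 added to every signal before log2. Its gap between the groups was smaller than the distance between the overexpressor arrays. rpoB stood at -1.26 relative to matK, but with a signal not shown to be above background this value does not measure rpoB RNA against matK RNA, and no p is read from it.

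rpoC1 differed from matK by -0.22 (limma adjusted p = 0.170) and rpoC2 by -0.32 (limma adjusted p = 0.0465). Without wild-type replicate 2 the difference of rpoC1 was -0.11. That of rpoC2 was -0.20 without wild-type replicate 1 and did not pass there (limma adjusted p = 0.382), nor without overexpressor replicate 1 (-0.28) or 2 (-0.36). All rows of this fit share the matK signal, so the spread that limma pools is not independent between probe sets and these p-values are too small. With the variance prior of the whole-table fit, doubled for a difference of a pair of probe sets and chosen after seeing the data, 0.501% of all probe sets were higher relative to matK and 90.4% lower. Its t statistics, called moderated t here, were computed from limma's estimates with that prior set by hand. The interval was then 0.35 to 1.35 for accD (moderated t, adjusted p = 0.00735). It was -0.58 to 0.13 for rpoC1 (moderated t, adjusted p = 0.189) and -0.69 to 0.04 for rpoC2 (moderated t, adjusted p = 0.0812). This leaves room for rpoC1 and rpoC2 to have changed by less than matK, by as much or by slightly more. The rpoC2 difference therefore passed in the first fit and not in the second.

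**Figure D2:**
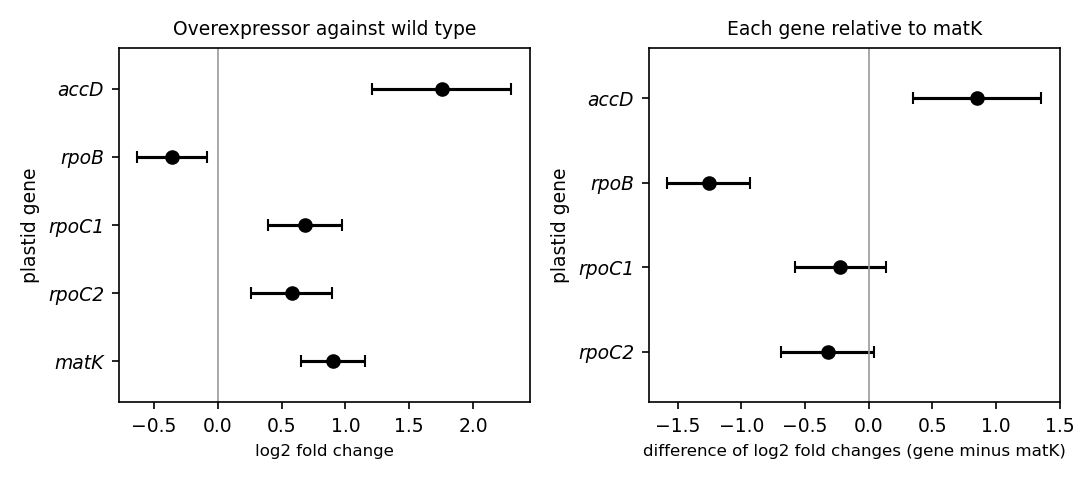
Left, log2 fold change of each gene, overexpressor against wild type, and right, the log2 fold change of each gene minus that of matK; points are estimates and bars 95% intervals (n = 2 arrays per group; on the right with the doubled variance prior). accD lies highest in both panels, rpoB is the only gene below 0 on the left, and the intervals of rpoC1 and rpoC2 on the right include 0. The signal of rpoB is not shown to be above background, so its position on the right is no measure of its RNA against matK RNA.

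The genes of the rpoB unit were also compared among themselves, relative to rpoC1, in a fit chosen after seeing the data. In it 1.25% of all probe sets were higher relative to rpoC1 and 82.0% lower, and with the doubled prior 1.07% and 78.6%. rpoC2 differed from rpoC1 by -0.10 (limma adjusted p = 0.624; interval with the doubled prior -0.57 to 0.37), and the arrays of the groups overlapped. rpoB is not compared with rpoC1 here, since its probe set is not shown to be above background and its own change did not pass. accD exceeded rpoC1 by 1.07 (limma adjusted p = 2.22e-07), with an interval of 0.48 to 1.67 under the doubled prior (moderated t, adjusted p = 0.00916). All rows of this fit share the rpoC1 signal, and accD and rpoC2 had the same SE of 0.19 in it. The p-values without the doubled prior are therefore too small here too.

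The remaining plastid polymerase gene, rpoA, encodes the alpha subunit and lies in the ribosomal protein cluster, away from the rpoB unit. rpoA had log2 signals of 11.11 and 10.95 in the overexpressors, against 8.91 and 9.12 in wild type. It rose by 2.01 (SE 0.12, limma adjusted p = 4.03e-04). The rise of rpoA exceeded that of rpoC1 by 1.33 (interval with the doubled prior 0.98 to 1.69, moderated t, adjusted p = 0.00228). It exceeded that of matK by 1.11 (0.71 to 1.51, moderated t, adjusted p = 0.00129). Of the 4 core subunit genes 3 therefore rose, where 42.2% of the other named plastid probe sets and 12.2% of all were called higher. Among these genes rpoA rose most, and rpoC1 and rpoC2 were not shown to differ.

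Other plastid genes with a described promoter for the nuclear-encoded polymerase were listed, and 4 of the 6 have a named probe set. By limma 1 of these rose, 3 did not pass and 0 fell (0 were lower at unadjusted p under 0.05 too), and their median log2 fold change was 0.33, close to the 0.34 of the other named plastid probe sets, with -0.02 over all probe sets. The share called higher was 42.2% among the other named plastid probe sets and 12.2% over all. clpP, which encodes a subunit of the plastid protease, had log2 signals of 10.89 and 10.91 in the overexpressors and 9.95 and 10.12 in wild type and rose by 0.86 (SE 0.10, limma adjusted p = 0.00361). The ribosomal protein genes rps15 (log2 fold change 0.32, limma adjusted p = 0.0906) and rpl32 (0.33, limma adjusted p = 0.280) did not pass. Nor did atpB, which encodes the beta subunit of the ATP synthase (0.29, limma adjusted p = 0.143).

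Along the plastid genome the 5 genes have neighbours that moved in different directions, as the order of genes in the TAIR10.1 gene table shows. Of the 5 neighbouring genes listed, 3 rose, 1 fell and 1 did not pass, and neither did petN, which was not listed. Among the other named plastid probe sets 42.2% were called higher and 3.12% lower, and over all probe sets 12.2% and 11.8%. On the sides of matK, rps16, a ribosomal protein gene, rose by 0.92 (SE 0.19, limma adjusted p = 0.0181), whereas psbA, which encodes the D1 protein of photosystem II, had log2 signals of 8.78 and 8.98 in the overexpressors, against 9.52 and 9.46 in wild type, and fell by 0.61 (limma adjusted p = 0.0113). Next to rpoC2, the ribosomal protein gene rps2 had 5.90 and 6.15 in the overexpressors, against 5.13 and 5.08 in wild type, a rise of 0.92 (SE 0.12, limma adjusted p = 0.00407). On the far side of rpoB, petN, which encodes a small subunit of the cytochrome b6f complex, did not pass, at a log2 fold change of -0.16.

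accD stands between rbcL and psaI. The large Rubisco subunit gene rbcL had log2 signals of 9.75 and 9.48 in the overexpressors, against 9.71 and 9.65 in wild type, and did not pass (-0.06, limma adjusted p = 0.777). psaI, a photosystem I subunit gene, had 8.83 and 8.84 in the overexpressors, against 7.45 and 7.65 in wild type, and rose by 1.28 (SE 0.11, limma adjusted p = 0.00137). On the side of rbcL the groups overlapped, and on the side of psaI both overexpressor arrays were higher.

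**Figure D3:**
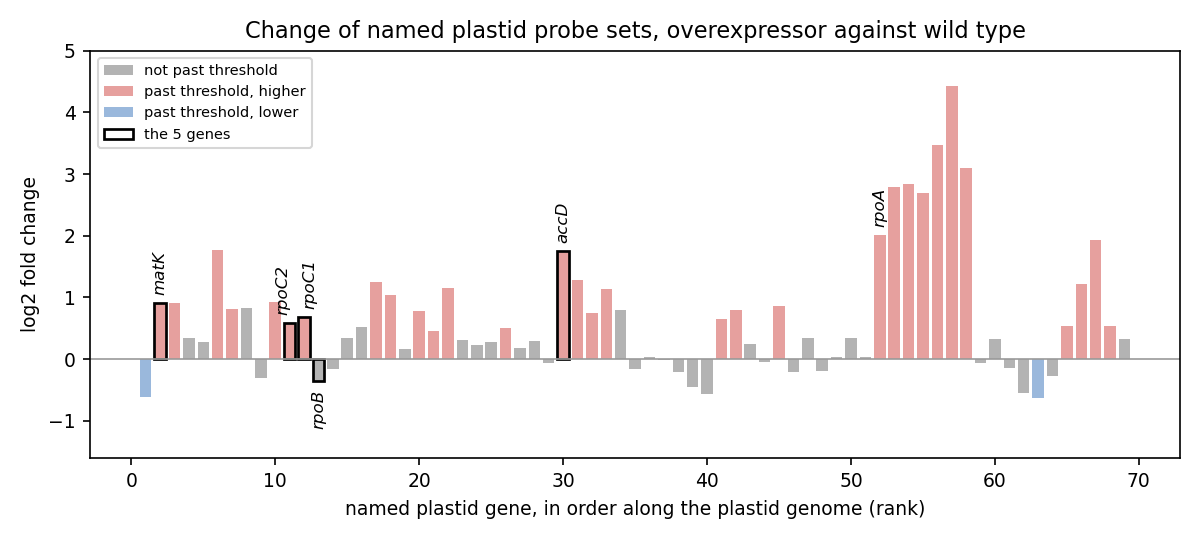
Log2 fold change, overexpressor against wild type (vertical axis), of the 69 named plastid probe sets in their order along the plastid genome (horizontal axis, rank); red bars passed the threshold and were higher, blue bars passed and were lower, grey bars did not pass, and black outlines mark the 5 genes. accD (1.75) stands between rbcL, with no call, and psaI (1.28), which was higher. rpoB (-0.36) is grey next to rpoC1 (0.68) and rpoC2 (0.58), and rpoA (2.01) lies at the edge of the cluster with the highest bars.

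Likeness to other plastid genes was measured as the root mean square difference in log2 signal over the 4 arrays, after centring each gene on its wild-type mean, among the 64 other named plastid probe sets. This is a description without a test, and it rests mainly on the fold change. Closest to accD were the NDH subunit gene ndhA (0.33), rpoA (0.37) and psaI (0.43). Closest to matK were rps2 (0.04), clpP (0.07) and rpl33 (0.09), which encodes another ribosomal protein. rpoB was nearest to the photosystem II gene psbB (0.14), the cytochrome b6f gene petL (0.16) and the ATP synthase gene atpI (0.16), 3 genes that did not pass.

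Partner genes came from lists of the pathway. Of the 3 listed plastid genes with introns that the maturase is known to bind, atpF, which encodes a subunit of the ATP synthase, has a named probe set. atpF had log2 signals of 5.64 and 5.04 in the overexpressors, against 4.44 and 4.60 in wild type, and rose by 0.81 (SE 0.20, limma adjusted p = 0.0307). Its exons and intron cannot be told apart here, so the value says nothing of splicing.

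Of 11 nuclear genes listed for splicing factors of plastid introns, 2 were measured under a symbol. Both rose, where 12.2% of all probe sets were called higher. CRS2 and PPR4 of the same list also have 1 probe set each, but their loci have no symbol and they were not read. CFM3A, which encodes a protein with CRM domains, had log2 signals of 6.31 and 6.03 in the overexpressors, against 4.13 and 4.55 in wild type, a rise of 1.83 (SE 0.17, limma adjusted p = 0.00174). CAF1, named after its association with the splicing factor CRS2, rose by 0.45 (SE 0.12, limma adjusted p = 0.0380). Of 7 listed editing factors of plastid transcripts 2 were measured under a symbol, and YS1, with 1 probe set, was not read for the same reason. Of the 2 measured, 0 passed in limma, nor did either have unadjusted p under 0.05. CRR22, a pentatricopeptide repeat protein that acts on rpoB transcripts among others, had a log2 fold change of 0.33 (limma adjusted p = 0.152). OTP81, a protein of the same family, had -0.22 (limma adjusted p = 0.190). The listed sigma factors, polymerase-associated proteins, phage-type polymerases and nuclear subunits of acetyl-CoA carboxylase are not analysed here.

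The genes differ in length, and fold change was related to gene length in these data: across 13367 nuclear probe sets log2 fold change and log2 gene length correlated with r = 0.33, where genes are not independent replicates. In the gene table accD spans 1467 bp, matK 1515 bp, rpoC1 2834 bp with its intron, rpoB 3219 bp and rpoC2 4131 bp. Among the 5, the longer genes were not the ones with the higher fold changes. With the nuclear trend removed, accD was at 1.87 (limma adjusted p = 0.00227), and rpoC2 was at 0.43 and no longer passed (limma adjusted p = 0.0638). rpoB was at -0.43 and passed (limma adjusted p = 0.0455). It also passed with an intensity trend in the variance (limma adjusted p = 0.0499). Relative to matK, with the length trend removed, rpoC1 was at -0.37 (limma adjusted p = 0.0228) and rpoC2 at -0.58 (limma adjusted p = 5.96e-04). With 16 added to the signal instead, they were at -0.30 (limma adjusted p = 0.0177) and -0.57 (limma adjusted p = 6.23e-06). All rows share the matK signal here too, so these p-values relative to matK are too small. The arrays carry controls for RNA integrity, in which the log2 signal at the 3′ end minus that at the 5′ end is taken for a pair of probe sets. For actin this was 3.17 and 2.87 in the overexpressors and 3.03 and 3.16 in wild type. For GAPDH it was 0.41 and 0.43 in the overexpressors and 0.49 and 0.45 in wild type, and for ubiquitin 1.10 and 1.12 in the overexpressors and 1.10 and 1.09 in wild type. Over all 6 such pairs the difference between group means ran from -0.14, for the second GAPDH pair (-0.26 and -0.18 in the overexpressors, -0.20 and 0.04 in wild type), to 0.06.

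**Figure D4:**
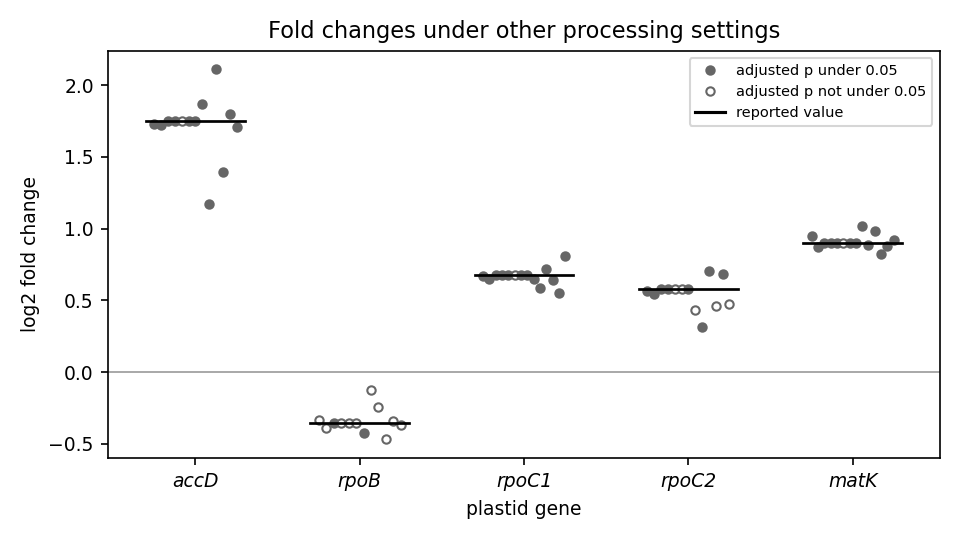
Log2 fold change, overexpressor against wild type (vertical axis), of the 5 genes (horizontal axis) under each other processing setting; filled points passed the adjusted threshold of 0.05, open points did not, and the line marks the reported value. No gene changes sign; accD ranges from 1.17 to 2.11, and rpoB stays between -0.47 and -0.13.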

How the data were processed

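The deposited values are signal intensities, 1 for each probe set on every array and linear in scale; the submitters' processing notes name RMA, with its version and the return to a linear scale not given in the sources used here. Per the labels' protocols, cRNA was labelled with biotin by a 3′ IVT kit, a method that starts from poly-A tails, which few plastid transcripts carry for long. Of 22810 probe sets, 64 controls were left out. Genes came from the platform annotation (13513 probe sets with 1 gene, 503 with several, 8730 unnamed here) and the TAIR10.1 gene table, which matched 13436 by Entrez identifier. No sequences were used.

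Log2 intensity was fitted with limma 3.58.1 in R 4.3.3 (lmFit, eBayes, group only, two-sided, Benjamini-Hochberg over 22746 probe sets; 2 residual and 4.24 prior degrees of freedom), after the script was tested on simulated data. The members, lists and rule for named genes (all 5 genes, rpoA, listed genes by smallest p, and the 3 most alike plastid genes for accD, matK and rpoB) were chosen with earlier results of these data known. petN and the integrity controls were added outside it where the text needed them. 4 list entries that have a probe set, but whose locus has no symbol, were not used (RPOTmp, CRS2, PPR4 and YS1).
Other settings changed the normalization, the filter on dim probe sets, the variance model, the pairing, the probe sets per gene, the length trend and the value added before log2, or left out 1 array.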

Additional observations from a re-analysis of the deposited data

How the results depend on the processing

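Of 122 values of single genes under other settings, 102 gave the same direction and call, 16 lost a call, 4 gained one and 0 changed sign. The 102 include all 13 values of rpoB minus matK, from which no p is read. They also include genes that did not pass and stayed so, and settings that cannot alter a difference within an array, such as median centring. The tally is therefore no measure of how stable the calls are. With limma's variances unshared between probe sets, 0 of the 5 genes passed (5 probe sets in all; lowest adjusted p of the 5 genes 0.112, for matK; 3 of the 5 had unadjusted p under 0.05), and the difference of accD from matK had adjusted p = 0.110; that difference was 0.287 with 16 added to the signal. The count of passing genes among the 5 was 2 when probe sets dimmer than the median were removed, where accD, rpoB and rpoC2 are left out, and 3 to 4 with 1 array left out. The count of 5460 probe sets moved to 3318 to 3586 with 1 array left out and 3612 with the replicate block. These settings have fewer samples or residual degrees of freedom, and their part in the lower counts was not tested. The count was 2685 with 1 probe set per gene (13356 probe sets tested) and 2276 with the length trend removed (13436 tested). Without probe sets dimmer than the median, 11373 were tested and 5605 called. The cause of the lower counts with 1 probe set per gene and with the length trend removed was not tested. Equal replicate numbers do not mark paired samples (their deviations correlated at -0.0410), and with the block 3 of the 5 genes passed, rpoC2 not (adjusted p = 0.0716). The average over accD, rpoB, rpoC1 and rpoC2 minus matK was -0.384 with the length trend removed, -0.400 with 16 added to the signal, 0.102 without rpoB and -0.601 without accD, and -0.313 to -0.162 with 1 array left out; adding 16 shrinks changes of dim genes by construction. It has no value with dim probe sets left out. The difference of rpoC2 from matK lost its call in 7 of 14 settings, and that of rpoC1 gained one in 2 of 15; with 1 array left out they ran from -0.450 to -0.196 and from -0.330 to -0.114.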
